A study of Homo sapiens with 4 samples.

Results

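The regions described here are the peaks that the authors' annotation placed in the 5' untranslated region (5' UTR) of a protein-coding gene, in RNA immunoprecipitated with the RNA methyltransferase NSUN2. They were chosen by 2 fields of the deposited peak lists, the biotype protein_coding and the annotation class five_prime_UTR. Among the listed peaks no measured value was used, but being listed at all depends on the reads of an IP and its own input. There were 647 such peaks among 48104 in lactate-treated cells and 1558 among 95785 in vehicle-treated cells, 2205 of 143889 in all. The cells were wild-type PANC-1, an established human pancreatic ductal adenocarcinoma line, kept in medium with 10% fetal bovine serum. For 24 h they received 30 mM sodium lactate or, as the vehicle, ddH2O. The vehicle contained no sodium salt, so added lactate and added sodium cannot be told apart. The 4 libraries were a lactate IP, a lactate input, a vehicle IP and a vehicle input, with 1 library per group. No value therefore has a replicate error, and no test between conditions was possible. An immunoprecipitation with a control antibody was not analysed here.

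The 5' UTR is the stretch of a message between its capped end and the start codon. The small ribosomal subunit is loaded at the cap and scans this stretch, and its length, folding, short upstream reading frames and bound proteins set how often translation begins. NSUN2 places 5-methylcytosine (m5C) on transfer RNAs and on some messenger RNAs. Its messenger RNA sites have been described as a cytosine followed by any base and then G-rich sequence, spelled here as CNGGG. Lactylation, the attachment of a lactate-derived group to lysine, is named with NSUN2 in the series title, which concerns the growth of pancreatic cancer cells along nerves.

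In both lists, 26 genes had a 5' UTR peak with the authors' q at most 0.05 over the first 50 bases of the gene, without counting 1 chromosome whose sequence was not used here. Sequences at the starts of 10 of them are shown, because these are the places where an NSUN2 peak covers the annotated start of a gene in both conditions. The first 6 are those with CNGGG in the first 50 bases, and the other 4 have the highest vehicle-list folds among genes without it. Each window is 30 bases of RefSeq sequence (GRCh38.p14), written 5' to 3' on the strand of the gene, and capitals mark CNGGG.
ELK3 (chr12:96194375-96194404, plus strand): gcgggcCTGGGcggccagccccggcgcaca
SCAF11 (chr12:45990525-45990554, minus strand): gcgcggagcagcgcaacCTGGGtcgctccc
TIMM21 (chr18:74148533-74148562, plus strand): gcgaaggcatggCGGGGacactgtgaatgt
PSMD14 (chr2:161308433-161308462, plus strand): cgcggcggaggcCCGGGcaactcttttgaa
YAP1 (chr11:102110457-102110486, plus strand): cgcagccgccgcCAGGGaaaagaaagggag
TAF13 (chr1:109075974-109076003, minus strand): agtgtaaccagCTGGGagccagccggcagg
CPEB4 (chr5:173888349-173888378, plus strand): actcggctcggtcctgaggagaaggactca
KPNA1 (chr3:122514910-122514939, minus strand): gcactgcgaacgccggctgagctgagtctc
PKIG (chr20:44531875-44531904, plus strand): aaggcaacgggctccgctgcgggttgcggg
EMP1 (chr12:13196726-13196755, plus strand): acacaccccagtacaccagcagaggaaact
ELK3, an ETS-family transcription factor, had a lactate-list peak of 416 bp with a fold of 6.73 and a vehicle-list peak of 455 bp with a fold of 8.77. YAP1, the transcriptional coactivator of the Hippo pathway, had peaks of 380 bp in lactate cells and 377 bp in vehicle cells, with summits 9 and 12 bp from the gene start. CPEB4, a protein that binds cytoplasmic polyadenylation elements, had folds of 8.09 in the lactate list and 17.6 in the vehicle list. Folds and q values per peak are the authors' own, each IP against its own input, and describe peaks within 1 list only.

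The share of covered starts with CNGGG was near that over all genes or lower. On the sense strand, it stood in the first 50 bases of 19 of 61 genes (31.1%, 95% Wilson interval 20.9 to 43.6) covered by a lactate-list peak and 55 of 157 (35.0%, 28.0 to 42.8) covered by a vehicle-list peak. Over all 15843 protein-coding genes with RefSeq sequence the share was 37.4%, within both intervals, and it was 39.3% among those with an FPKM of at least 1 in the vehicle input. Counting either strand gave 49.2% in the lactate list, 49.7% in the vehicle list and 56.2% over all genes. The median GC content of the same 50 bases was 68% at lactate-list starts, 64% at vehicle-list starts and 64% over all genes. A match is a description of letters and not a methylated site, and no match says only that the letters are absent from this window.

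Reads were concentrated on mitochondrial RNA in all 4 libraries, more so after lactate. The share of reads outside mitochondrial genes was 14.2% in the lactate IP and 21.2% in the lactate input. It was 30.9% in the vehicle IP and 31.7% in the vehicle input, so in vehicle cells IP and input differed little. Totals recovered from the deposited FPKM values were 15189967 reads in the lactate IP, 11175432 in the lactate input, 13620414 in the vehicle IP and 17626197 in the vehicle input. The large mitochondrial ribosomal RNA, MT-RNR2, took 83.7% of the lactate IP, 55.1% of the lactate input, 68.0% of the vehicle IP and 41.0% of the vehicle input. Reads outside mitochondrial genes numbered 2152118 in the lactate IP, 2371662 in the lactate input, 4204381 in the vehicle IP and 5589495 in the vehicle input. The lactate IP thus held fewer such reads than the vehicle IP, and the part of this depth in each peak count below was not tested. In such bulk libraries, fewer cells and less RNA per cell cannot be told apart. Of 6 epithelial and ductal markers, 5 reached an FPKM of 1 in an input, among them KRT8, KRT18, KRT19 and EPCAM. None of the 7 measured endothelial, immune and neuronal markers reached it, and of 2 measured fibroblast markers COL1A1 did, with 1.55 in the lactate input and 1.89 in the vehicle input.

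The 5' UTR was the smallest annotated class of protein-coding peaks in both lists. It held 1.35% of all lactate-list peaks (95% Wilson interval 1.25 to 1.45) and 1.63% of all vehicle-list peaks (1.55 to 1.71). Among protein-coding peaks alone the shares were 1.58% (1.47 to 1.71) in lactate cells and 1.98% (1.89 to 2.08) in vehicle cells. The intervals of the lists do not overlap on either scale, but they cover counting error only, since the library kit adds no molecular identifiers and neighbouring peaks are not independent. Introns held 25152 lactate-list and 48052 vehicle-list peaks, other exons 7668 and 16497, and 3' UTRs 7416 and 12384, in the same order. When the vehicle list was shortened to the 48104 peaks of lowest p, 833 of its 5' UTR peaks were left, 1.73% of that list. At equal list length the lactate list thus still held fewer 5' UTR peaks, 647 against 833.

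The 5' UTR peaks were narrow, as were the peaks of each list as a whole. Their median width was 209 bp in lactate cells (quartiles 200 and 341.5) and 224 bp in vehicle cells (200 and 362.75), with maxima of 1179 and 1255 bp in that order. The smallest listed width, 200 bp, was given to 288 lactate-list peaks (44.5%) and 628 vehicle-list peaks (40.3%). Over all peaks that share was 42.8% in the lactate list and 41.3% in the vehicle list, with median widths of 225 bp and 241 bp in that order. Intron peaks were narrower still, with medians of 201 bp in lactate cells and 215 bp in vehicle cells. Other exon peaks were wider, with medians of 280 bp in lactate cells and 327 bp in vehicle cells, and so were 3' UTR peaks, with medians of 300 bp and 332 bp in the same order. The authors' q was at most 0.05 for 293 lactate-list peaks (45.3%) and 804 vehicle-list peaks (51.6%). These shares were 42.7% of all peaks in the lactate list and 48.6% in the vehicle list, so the 5' UTR class lay slightly above each list as a whole. It lay below exon peaks (55.9% in lactate cells, 62.5% in vehicle cells) and 3' UTR peaks (65.0% in lactate cells, 70.6% in vehicle cells).

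**Figure D1:**
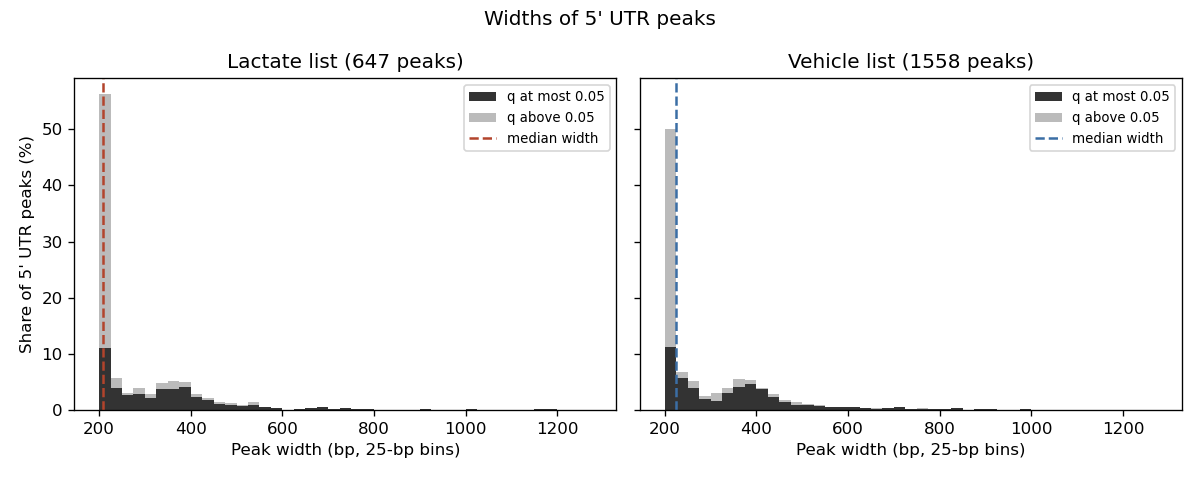
Widths of the 5' UTR peaks in 25-bp bins (x axis, bp) as a share of the peaks of each list (y axis, percent), lactate on the left and vehicle on the right. Dark bars are peaks with the authors' q at most 0.05, light bars the rest, and the dashed line is the median (209 bp in lactate cells, 224 bp in vehicle cells). Most peaks with q above 0.05 stand in the first bin and most of the wider peaks have q at most 0.05.

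The class is named for the capped end of messages, but only a minority of its peaks lay near the start of the gene. The summit was within 1 kb of the RefSeq gene start for 237 of 645 matched lactate-list peaks (36.7%, 33.1 to 40.5) and 623 of 1552 vehicle-list peaks (40.1%, 37.7 to 42.6). It was more than 10 kb downstream for 246 lactate-list peaks (38.1%) and 558 vehicle-list peaks (36.0%). The median position was 3261 bp downstream in lactate cells and 2275.5 bp in vehicle cells. The peak covered the start itself at 75 lactate-list genes' peaks (11.6%) and 182 in the vehicle list (11.7%). RefSeq gives 1 start per gene, the outermost, and the authors annotated each peak to 1 transcript, so a distant peak can be the 5' UTR of a shorter transcript. Such a peak may equally lie in an exon or intron of the longer ones, and the sources used here do not give the rule that chose 1 class per peak.

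The class was still far closer to gene starts than the others. Only 4.34% of exon, 0.474% of intron and 0.123% of 3' UTR peaks of the lactate list were within 1 kb, and 4.66%, 0.494% and 0.180% of those classes in the vehicle list. Summits within 250 bp made up 23.1% of 5' UTR peaks in lactate cells and 24.5% in vehicle cells. Another 60 lactate-list peaks (9.27%) and 144 vehicle-list peaks (9.24%) overlapped the span of a second RefSeq protein-coding gene, so their gene is uncertain.

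**Figure D2:**
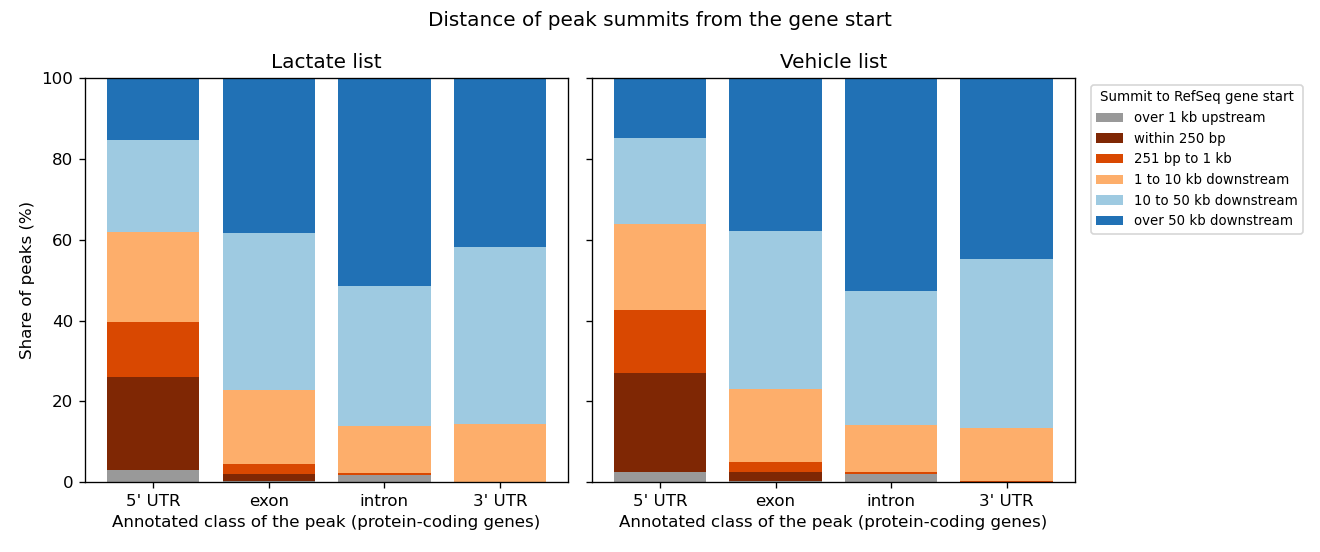
Share of peaks (y axis, percent) by the distance of the summit from the RefSeq gene start, for the 4 annotated classes of protein-coding peaks (x axis), lactate list on the left and vehicle list on the right. Dark red and orange, within 1 kb, make up 36.7% of 5' UTR peaks in lactate cells and 40.1% in vehicle cells, and under 5% of every other class.

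The strongest 5' UTR peak of the lactate list lay in ARHGEF11, a guanine nucleotide exchange factor for RHOA. It ran over 561 bp (chr1:157045086-157045646, GRCh38, minus strand), with a fold of 33.8 and its summit 1557 bp from the gene start. The vehicle-list peak covered nearly the same bases, with a width of 544 bp and a fold of 15.5. ARHGEF11 had an FPKM of 1.36 in the lactate IP and 0.0384 in the lactate input, and of 1.82 in the vehicle IP and 0.146 in the vehicle input. Both IP libraries were thus above both inputs, where only 4 reads (lactate) and 24 reads (vehicle) were recovered. It was followed in the lactate list by ASAP1, an ARF GTPase-activating protein, with a fold of 17.7, and by CHD3, a chromatin remodeller of the NuRD complex, and ZMYND8, a chromatin reader, both at 15.1. RC3H1 (Roquin-1, an RNA-binding repressor of messages), NFE2L1, ATAD2, NMT1, ATP6V1E2 and ADAL completed the 10 highest, between 12.9 and 13.8.

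The strongest peak of the vehicle list lay in ZC3H11A, a zinc finger protein of mRNA export. It was 941 bp wide (chr1:203796887-203797827, plus strand), had a fold of 88.6 and lay 1942 bp from the gene start. In the lactate list the same place held a peak of 735 bp with a fold of 11.4. Each fold is against its own input, so the folds do not compare the conditions. In the authors' direct comparison of the IP libraries, described below, the normalized log2 ratio of lactate IP over vehicle IP here was 0.18. It came from 133 lactate IP and 217 vehicle IP reads, with an interval of −0.15 to 0.49 that includes 0. ZC3H11A was listed at an FPKM of 0.00513 in the lactate IP and 0 in the vehicle IP, where 1 and 0 reads were recovered. This region lies within the span of ZBED6, a gene inside ZC3H11A that has no row in the FPKM table, so the reads cannot be assigned to ZC3H11A. The next folds of the vehicle list were 32.5 at ASAP1, 30.8 at ANKHD1, 23.1 at CHD3, 22.6 at OSBPL11 and 21.7 at HDAC2. INSYN2A, PDCD4, ATAD2 and DYNC2I1 followed, between 20.5 and 21.2. The INSYN2A peak lies within DOCK1, and INSYN2A itself was listed at 0 in the vehicle input, where DOCK1 had an FPKM of 1.52. The strongest ATP6V1E2 peaks overlap RHOQ, and the ANKHD1 peaks lie within ANKHD1-EIF4EBP3, so their genes are uncertain too. A 5' UTR peak of ADAL also overlaps the span of LCMT2.

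ASAP1, ATAD2 and CHD3 stood among the 10 highest folds of both lists, which together named 17 genes. For 7 of the 17 the strongest peak had its summit within 1 kb of the gene start, for 4 between 1 and 10 kb and for 6 farther downstream. ATAD2, a bromodomain ATPase, had the widest 5' UTR peak in both conditions, 1179 bp in lactate cells and 1255 bp in vehicle cells, 45210 bp from the gene start in each. Its 3 peaks in lactate cells each overlapped 1 of its 3 peaks in vehicle cells. ATAD2 had an FPKM of 12.7 in the lactate IP, 8.86 in the lactate input, 25.1 in the vehicle IP and 11.2 in the vehicle input. The other wide peaks were at PPP6R2 (1158 bp), ANKHD1 (1001 bp), ZNF638 (901 bp) and ENSG00000285827 (799 bp) in the lactate list. The last overlaps the span of KMT2A, which had an FPKM of 0.554 in the lactate input and 0.689 in the vehicle input. ENSG00000285827 was listed at 0 in both inputs, so the gene of this peak is uncertain. In the vehicle list they were at STK40 (1131 bp), PKM (1097 bp), EPS8 (1042 bp) and ANKHD1 (1019 bp).

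HDAC2, a class I histone deacetylase that also removes lactyl groups from histones, is an example near a gene start. Its lactate-list peak was 288 bp wide (chr6:113970672-113970959, minus strand) with a fold of 12.0, and its vehicle-list peak 433 bp wide (chr6:113970671-113971103) with a fold of 21.7. The summits lay 283 bp from the gene start in lactate cells and 250 bp in vehicle cells. HDAC2 messages as a whole were lower in the IP than in the input, with an FPKM of 3.29 in the lactate IP and 11.2 in the lactate input, and 9.33 in the vehicle IP and 14.03 in the vehicle input. A peak within the 5' UTR and a gene-wide IP level below the input thus occurred together.

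A 5' UTR peak was found in 547 genes in lactate cells and 1211 in vehicle cells, 1407 in all. Both lists shared 351 of them, which is 64.2% of the lactate genes and 29.0% of the vehicle genes. The lists also held 196 genes with such a peak in lactate cells alone and 860 in vehicle cells alone. The matching shares over genes with peaks of other classes were not computed. The vehicle list is also the longer one, with 95785 peaks against 48104. A gene counted in 1 condition alone can hold peaks of another class in the other, as HIF1A did with 8 in vehicle cells. Most genes had a single one, 475 of 547 in lactate cells and 972 of 1211 in vehicle cells, while 18 and 69 genes in that order had at least 3. SUCO, a membrane protein needed for bone formation in mice, had most, with 5 in lactate cells and 9 in vehicle cells. R3HDM2 had 5 in lactate cells and 8 in vehicle cells, and ANKHD1 and SPATS2L each had 5 in lactate cells and 7 in vehicle cells. How far the peaks of a gene were apart varied. The 3 ATAD2 peaks spanned 3.03 kb in lactate cells and 3.05 kb in vehicle cells, while the CHD9 peaks lay between 154677 and 213062 bp from its start in lactate cells and between 44232 and 213003 bp in vehicle cells.

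Genes with a 5' UTR peak had higher FPKM than protein-coding genes in general. Their median FPKM in the lactate input was 1.07 for the lactate list, against 0.337 over all 14468 protein-coding genes. In the vehicle input it was 1.34 for the vehicle list, against 0.505 over all. Of all protein-coding genes, 541 (3.74%) had a 5' UTR peak in the lactate list and 1196 (8.27%) in the vehicle list. The share did not keep growing with abundance. In lactate cells it was 2.63% of genes with an input FPKM under 1, 6.10% between 1 and 5, 6.53% between 5 and 20, and 5.04% at 20 and over. In vehicle cells it was 5.67%, 12.5%, 13.8% and 9.12% over the same classes.

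**Figure D3:**
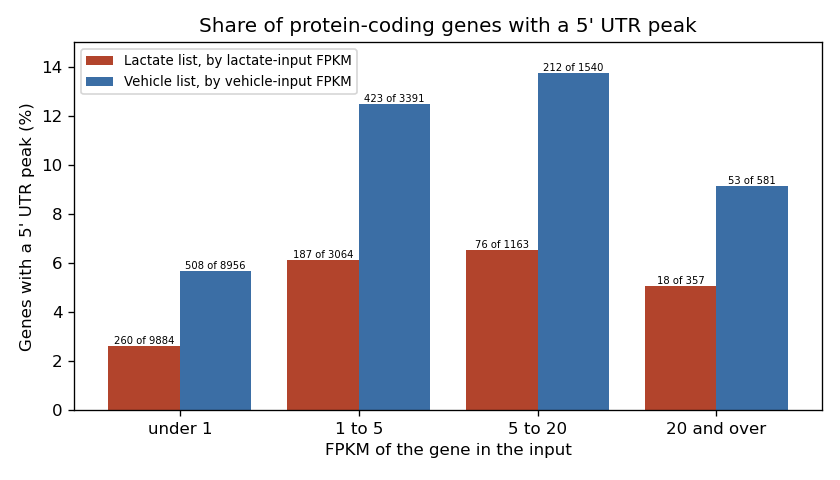
Share of protein-coding genes with at least 1 5' UTR peak (y axis, percent) by the FPKM of the gene in the input of the same condition (x axis), lactate bars left of vehicle bars. The labels above the bars give the genes with a peak and the genes in the class. Both lists are highest in the class from 5 to 20 (6.53% in lactate cells, 13.8% in vehicle cells) and lower in the class of 20 and over.

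Lactate-list 5' UTR peaks were largely found again in vehicle cells, while most vehicle-list peaks were not found in lactate cells. Of the 647 lactate-list peaks, 369 (57.0%) shared at least 1 bp with a vehicle-list 5' UTR peak, and of the 1558 vehicle-list peaks, 364 (23.4%) did so with a lactate-list 5' UTR peak. With the vehicle list shortened to equal length the shares were 50.7% of the lactate-list and 38.8% of the vehicle-list 5' UTR peaks. Counting peaks of any class, 427 lactate-list peaks (66.0%) overlapped the vehicle list, against 56.4% of all lactate-list peaks. In the other direction 414 vehicle-list peaks (26.6%) overlapped the lactate list, against 27.8% of all vehicle-list peaks. The lactate-list share thus lay above that of its whole list, and the vehicle-list share near it. Both lay above intron peaks (47.3% in lactate cells, 24.1% in vehicle cells). Both lay below exon peaks (74.2% in lactate cells, 36.4% in vehicle cells) and 3' UTR peaks (79.4% in lactate cells, 43.8% in vehicle cells). Where a 5' UTR peak met only another class, the partner was an exon peak for 45 of 58 in lactate cells and an intron peak for 30 of 50 in vehicle cells.

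The overlap went with peak strength. Among lactate-list 5' UTR peaks with q at most 0.05, 87.4% overlapped the vehicle list (80.2% for all other lactate-list peaks at that q), and among those above it 48.3% did (38.4%). Among vehicle-list 5' UTR peaks the share was 45.1% at q up to 0.05 (45.0% for all other vehicle-list peaks) and 6.76% above it (11.6%). Of the vehicle-list 5' UTR peaks at 200 bp, 4.46% overlapped the lactate list, and of the lactate-list ones at 200 bp, 42.0% overlapped the vehicle list. Position relative to the gene start made little difference: 59.9% of lactate-list peaks within 1 kb and 56.3% of those more than 1 kb downstream overlapped a vehicle-list 5' UTR peak.

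**Figure D4:**
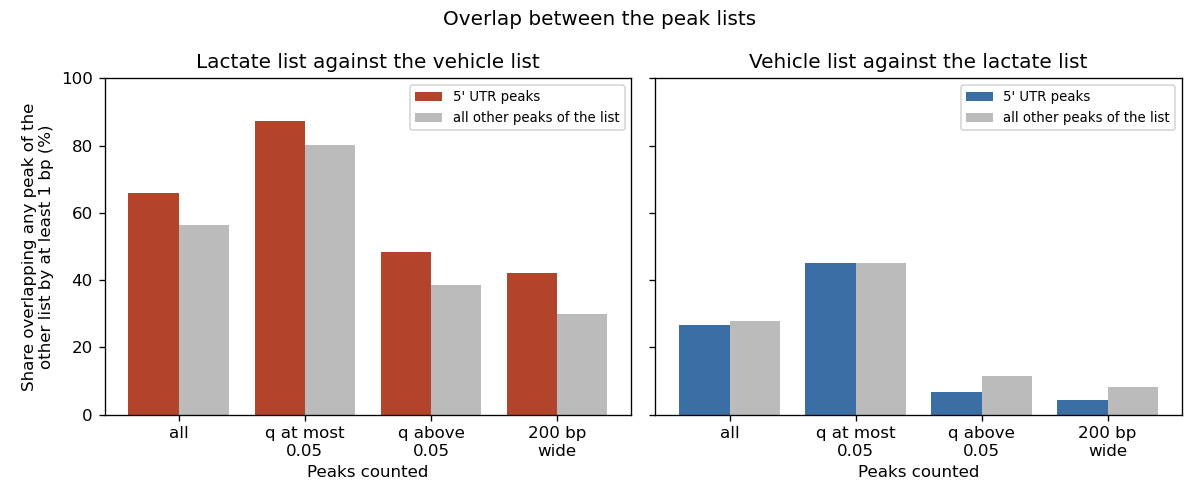
Share of peaks that overlap any peak of the other list by at least 1 bp (y axis, percent) for all peaks, for peaks with q at most 0.05 or above it, and for peaks 200 bp wide (x axis). Coloured bars are 5' UTR peaks and grey bars all other peaks of the same list, lactate list on the left and vehicle list on the right. The 5' UTR peaks stand above the grey bars in all 4 groups of the lactate list, and are level with them (q at most 0.05) or below them in the vehicle list.

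Where 5' UTR peaks of both lists met, they met closely. Over 369 overlapping pairs the summits were a median of 30.0 bp apart, and 65.9% were within 50 bp. Over the 27397 overlapping pairs of all classes the median was 51.0 bp and the share within 50 bp was 49.7%. Among pairs with q at most 0.05 in both lists the medians were 19.0 bp for 212 pairs of 5' UTR peaks and 39.0 bp for 14616 pairs of all classes. The lactate-list peak of a 5' UTR pair had a median width of 256 bp and the vehicle-list peak 380 bp. All-class pairs were wider, with medians of 302 bp and 411 bp in the same order. The part of peak width in the summit distances was not tested. The vehicle-list peak was the wider one in 75.6% of 5' UTR pairs and 68.7% of all-class pairs. With q at most 0.05 in both lists it was the wider one in 73.6% of 5' UTR pairs and 73.4% of all-class pairs.

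The authors' deposited table compared the IP libraries directly at 116484 peaks, of which 1835 overlapped a 5' UTR peak of either list. In it, M is the log2 ratio of lactate IP over vehicle IP after the authors' normalization. In the authors' deposited table, M had a median of −0.74 at the 5' UTR peaks and −0.50 over all peaks. M was at least 1 at 146 of them (7.96%, against 13.9% of all peaks) in the authors' deposited table, and at most −1 at 774 (42.2%, against 38.6%). With M of the authors' deposited table centred on its median, the counts were 265 (14.4%, against 22.0% of all peaks) at or above 1 and 499 (27.2%, against 28.4%) at or below −1. Among the 471 that the authors' deposited table lists as common to both conditions, M had a median of −0.34, and over all common peaks 0.00. The 5' UTR peaks were therefore lower in lactate IP, relative to vehicle IP, than common peaks in general. Reads behind them were few, with medians of 12 in the lactate IP and 19 in the vehicle IP for common 5' UTR peaks, against 16 and 21 for all common peaks.

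Read numbers behind M, recovered from the authors' deposited table, limit its use at these peaks. At least 10 reads over both IP libraries together were recovered at 854 of the 1835 peaks (46.5%), and at 54.9% of all peaks. Of 220 5' UTR peaks listed as present in lactate cells alone, 41 (18.6%) had 0 reads in the lactate IP, against 564 of 20965 (2.69%) over all such peaks of the authors' deposited table. Of 1144 listed as present in vehicle cells alone, 158 (13.8%) had 0 reads in the vehicle IP, against 2124 of 69138 (3.07%) over all. At NMT1 the authors' deposited table held 3 lactate IP and 2 vehicle IP reads, where the peak lists gave folds of 13.5 (lactate) and 8.49 (vehicle). At KPNA1 the authors' deposited table held 5 reads in each library, with folds of 9.96 (lactate) and 17.0 (vehicle). The sources used here do not say how reads were counted for the authors' deposited table, and whether the peak calling used the same reads was not tested.

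**Figure D5:**
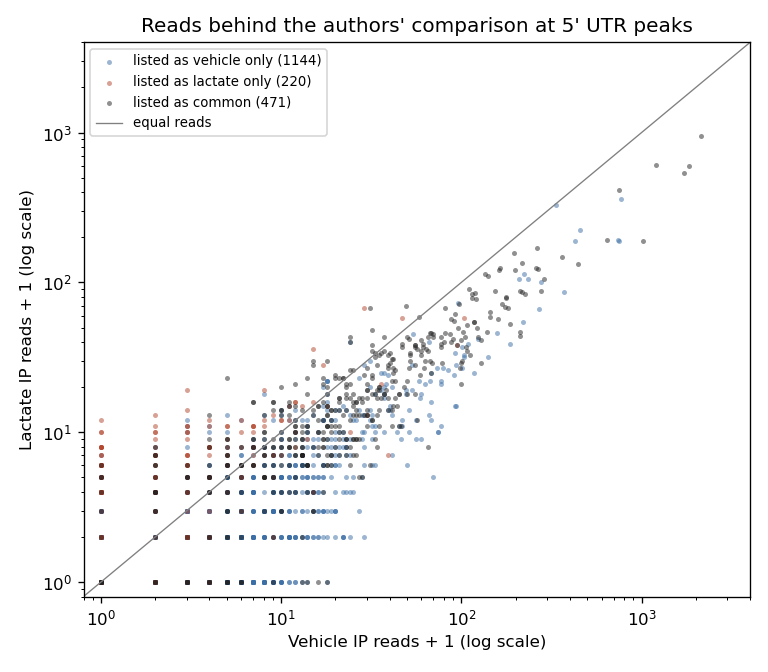
Reads in the lactate IP (y axis) against reads in the vehicle IP (x axis), each plus 1 on a log scale and not normalized, at the 1835 peaks of the authors' comparison that overlap a 5' UTR peak. Red points are listed as lactate only (220), blue as vehicle only (1144) and black as common (471), points with the same reads lie on each other, and the line marks equal reads. Points crowd at low reads, and those with the most vehicle IP reads lie below the line.

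Among 5' UTR peaks with A at or above the median of the authors' deposited table, UBE2D2, a ubiquitin-conjugating enzyme, had the highest M, 2.78, from 18 lactate IP reads and 2 vehicle IP reads (95% interval 1.23 to 6.44). RAD52, a DNA repair protein, followed in the authors' deposited table with an M of 2.41 from 22 lactate IP and 4 vehicle IP reads (1.11 to 4.66). Both peaks lay over 50 kb from the RefSeq start of the gene, UBE2D2 at 59507 bp and RAD52 at 54406 bp. PPP1R8, NCOA6 and CTBP2 completed the 5 highest with M of 2.30, 2.06 and 1.93 in the authors' deposited table, each on 2 vehicle IP reads. CTBP2 tied with peaks at ASPHD1 and SYMPK, 3 peaks with the same M in the authors' deposited table. These UBE2D2 and PPP1R8 peaks were called in the lactate list alone. The NCOA6 and CTBP2 peaks were called in the vehicle list alone, 200 bp wide and at a q of 1.

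At the other end of the authors' deposited table, DSEL had an M of −3.74 from 1 lactate IP read and 28 vehicle IP reads (−10.04 to −2.09). The DSEL peak was 200 bp wide, with a fold of 1.81 and a q of 0.242. SURF4, a cargo receptor of the early secretory pathway, had an M of −3.49 from 1 and 23 reads in the same order in the authors' deposited table. MKKS, a chaperonin-like protein of cilia, had an M of −3.47 from 4 lactate IP and 69 vehicle IP reads (−5.68 to −2.35) in the authors' deposited table. 5' UTR peaks of MKKS also overlap LOC128706665 and LOC128706666, so their gene is uncertain. Both 5' UTR peaks of HP1BP3, a heterochromatin protein, shared the same reads, 1 in the lactate IP and 21 in the vehicle IP, and an M of −3.37 in the authors' deposited table. All these peaks with the lowest M were called in the vehicle list alone. The intervals of the highest and lowest M do not allow for the peaks being picked as extremes. Peaks with summits up to 400 bp apart had equal reads in 57.2% of 1732 pairs, against 1.01% of 13913 pairs 2500 to 4000 bp apart, so neighbouring values there are not independent.

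Some named peaks had more reads. At ATAD2 the authors' deposited table gave an M of 0.28 from 604 lactate IP and 1202 vehicle IP reads (0.13 to 0.42). At ELK3 it gave 0.56 from 155 lactate IP and 194 vehicle IP reads (0.25 to 0.87), and at ARHGEF11 0.46 from 110 and 140 in that order, in the authors' deposited table. CDK1, the mitotic kinase, lay in the other direction. CDK1 had a 5' UTR peak in the vehicle list alone, 420 bp wide (chr10:60778337-60778756, plus strand), 231 bp from the gene start and with a fold of 9.57. The authors' deposited table gave CDK1 an M of −1.64 from 24 lactate IP and 117 vehicle IP reads (−2.38 to −1.04). CDK1 was listed at an FPKM of 1.67 in the lactate IP and 18.5 in the lactate input, and of 5.35 in the vehicle IP and 22.4 in the vehicle input. HDAC2 had an M of −1.65 from 10 lactate IP and 44 vehicle IP reads in the authors' deposited table (−2.91 to −0.74). These intervals compare the reads of 2 libraries, not the conditions.

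Of the genes followed as targets known from the study, STC1 alone had a 5' UTR peak, and it had one in each condition. STC1 encodes stanniocalcin 1, a secreted glycoprotein hormone. Its lactate-list peak was 282 bp wide (chr8:23854573-23854854, minus strand), 122 bp from the gene start, with a fold of 4.25. Its vehicle-list peak was 233 bp wide (chr8:23854572-23854804), 125 bp from the gene start, with a fold of 7.46. The authors' deposited table gave STC1 an M of 0.22 from 15 lactate IP reads and 16 vehicle IP reads (−0.90 to 1.33), an interval that includes 0. STC1 had an FPKM of 1.56 in the lactate IP and 1.15 in the lactate input, and of 0.941 in the vehicle IP and 1.37 in the vehicle input. CDCP1, a cell-surface glycoprotein that signals through SRC kinases, had 14 peaks in lactate cells and 19 in vehicle cells, and none of them was annotated to the 5' UTR. NSUN2 itself had 2 peaks in lactate cells and 4 in vehicle cells, also with none in the 5' UTR.

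Messages known for regulation through their 5' UTR were compared with the 3.74% (lactate) and 8.27% (vehicle) of all protein-coding genes that had a 5' UTR peak. Their small counts do not separate a list from these shares without a test, and none was run. The shares are also not matched for FPKM. In the classes of input FPKM from 1 upward, 5.04% to 6.53% of genes had a 5' UTR peak in lactate cells. In vehicle cells the range was 9.12% to 13.8%. Of 96 measured 5' TOP messages, which encode ribosomal proteins and translation factors and begin with a pyrimidine tract, 3 had a 5' UTR peak in lactate cells and 4 in vehicle cells. An FPKM of at least 1 in both inputs was reached by 84 of the 96. RPL23A, of the large ribosomal subunit, was the member with such a peak in both, of 200 bp and a fold of 2.99 in lactate cells, and of 211 bp and 3.78 in vehicle cells. Its lactate-list peak had a q of 0.165. Ribosomal proteins have many near-identical pseudogenes, and the sources used here do not say how the authors treated reads that match several places. None of 5 measured messages with an iron responsive element had a peak in either list. Of 8 stress genes controlled by upstream reading frames, 0 had one in lactate cells and 1 in vehicle cells, PPP1R15B, a regulatory subunit of the phosphatase of eIF2α, with a peak of 200 bp at the authors' q of 1. Of 12 messages described to hold an internal ribosome entry site or a G-quadruplex there, 1 had a peak in lactate cells (HIF1A) and 2 in vehicle cells (XIAP and BCL2). The HIF1A peak had a q of 0.979 and overlapped a vehicle-list peak of another class, and the authors' deposited table lists it as common, with an M of −1.46 from 5 lactate IP and 18 vehicle IP reads. The BCL2 peak had a q of 0.140 and the XIAP peak of 0.0193.

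Of 38 translation initiation and scanning factors, 3 had a 5' UTR peak in each condition, beside the 3.74% (lactate) and 8.27% (vehicle) of all protein-coding genes. These shares are not matched for FPKM, and 30 of the 38 factors reached an FPKM of 1 in both inputs. LARP1, which binds the cap and pyrimidine tract of 5' TOP messages, had one in both, 519 bp wide with a fold of 9.96 in lactate cells and 694 bp wide with a fold of 10.9 in vehicle cells. Both lay over 100 kb from the RefSeq gene start, at 107538 bp in lactate cells and 107703 bp in vehicle cells. LARP1 had another lactate-list peak, 200 bp wide with a fold of 2.21 and a q of 1, 100 bp from the start. EIF3B, a scaffold subunit of eIF3, had a vehicle-list peak of 436 bp with a fold of 9.48 at its start, where it overlaps the span of SNX8. EIF4G3 had its peak in the lactate list, of 266 bp, and the helicase DDX3X in the vehicle list, of 280 bp.

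Of 14 measured messages described before as NSUN2 substrates, 2 had a 5' UTR peak in lactate cells and 5 in vehicle cells. These counts stand beside the same 3.74% (lactate) and 8.27% (vehicle) of all protein-coding genes, as do those of the lists that follow. Those shares are not matched for FPKM, and no difference from them was tested. PKM, the pyruvate kinase of glycolysis, and IRF3, a transcription factor of the interferon response, had one in both. The PKM peak was 449 bp wide with a fold of 6.60 in lactate cells and 1097 bp wide with a fold of 9.13 in vehicle cells, 3000 and 3061 bp from the gene start in that order. The IRF3 peak also lies within the span of BCL2L12. CDK1, GRB2 and SHC1 had theirs in the vehicle list. TREX2, a further message of that list with no row in the FPKM table, had 1 peak in lactate cells and 3 in vehicle cells, within the span of HAUS7. Of 18 m5C enzymes and readers, 3 had a 5' UTR peak in lactate cells and 2 in vehicle cells. FMR1, an RNA-binding translational repressor described as a reader of m5C, and RAD52 had one in both, and TET1, a methylcytosine dioxygenase, in lactate cells. The vehicle-list RAD52 peak was 200 bp wide with a q of 0.816. The TET1 peak overlapped a vehicle-list peak of another class, and the authors' deposited table lists it as common, with an M of −1.22 from 6 lactate IP and 18 vehicle IP reads. Of 19 genes of lactate transport and lactylation, 1 had a peak in lactate cells and 3 in vehicle cells. Beside HDAC2 these were SIRT1, a deacylase, with 3 vehicle-list peaks, and SLC16A1, the lactate transporter MCT1, with 2. For each of SIRT1 and SLC16A1, 1 of these peaks had a q at most 0.05.

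Of 21 measured genes of perineural invasion and axon guidance, 1 had a 5' UTR peak in lactate cells (STC1) and 2 in vehicle cells (STC1 and SEMA3C, a secreted semaphorin, whose peak had a q of 1). Of 8 genes of polyamine metabolism, 1 had one in each condition, AZIN1 in lactate cells and AMD1 in vehicle cells. The AZIN1 peak had a q of 0.979. The AMD1 peak overlapped a lactate-list peak of another class, and the authors' deposited table lists it as common, with an M of −0.10 from 20 lactate IP and 29 vehicle IP reads.

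Median gene-wide FPKM ratios of the genes with a 5' UTR peak lay near those of all genes. In lactate IP over vehicle IP, the median log2 ratio of FPKM + 1 was −0.76 for lactate-list genes and −0.77 for vehicle-list genes, against −0.74 over all genes tested. It was at most −1 for 87 of 398 lactate-list genes (21.9%) and 193 of 815 vehicle-list genes (23.7%), against 27.7% of all, and at least 1 for 0 genes of either list, against 1.64% of all. Among all protein-coding genes alone these shares were 24.4% and 0%. In lactate input over vehicle input the median was −0.43 for lactate-list genes and −0.40 for vehicle-list genes, against −0.43 over all. There 0 of 330 lactate-list and 0 of 690 vehicle-list genes were at 1 or more, against 1.76% of all, and 6 (1.82%) and 10 (1.45%) in that order at −1 or less, against 6.46% of all. Among protein-coding genes alone 0.0360% were at 1 or more and 3.07% at −1 or less. The ratios of IP over input use the same libraries as the peak calls that chose these genes, so they only describe them. In lactate IP over lactate input the median was 0.05 for lactate-list genes and −0.16 for vehicle-list genes, against −0.10 over all. It was at least 1 for 16.1% of lactate-list and 12.2% of vehicle-list genes (16.0% of all). It was at most −1 for 55 of 360 lactate-list genes (15.3%) and 153 of 720 vehicle-list genes (21.25%), against 23.3% of all genes. Protein-coding genes alone had 13.7% at 1 or more and 22.4% at −1 or less. In vehicle IP over vehicle input the median was 0.50 for lactate-list genes and 0.35 for vehicle-list genes, against 0.44 over all. It was at least 1 for 29.5% of lactate-list and 24.7% of vehicle-list genes (27.6% of all) and at most −1 for 12.1% and 12.6% in that order (15.3% of all), where protein-coding genes alone had 26.0% and 14.8%. FPKM was not rescaled for the share of mitochondrial reads, which differs between these libraries as given above, and its part in these medians was not tested.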

How the data were processed

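NSUN2-bound and input RNA of PANC-1 cells was measured in 4 libraries, 1 per group. Per the submitters' processing notes, GRCh38 was the build and MACS2 2.2.7.1, HOMER 4.11.1, HISAT2 2.1.0, DiffBind, fastp 0.20.1 and bedtools 2.29.2 were among the tools. The sources used here give neither their settings nor the annotation release and read counting. The authors deposited 1 peak list per condition with, per the file headers, a width, a fold enrichment (a ratio), a p-value and a q-value, and −log10 of each. The largest listed p was 0.0498 in lactate cells and 0.0496 in vehicle cells. The authors also deposited a table of both IP libraries, with normalized read density (signal), log2 ratio M and mean log2 density A, and a P column that never exceeds 0.25 and was used only as a score. Gene values were deposited in FPKM.

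Overlap meant at least 1 shared bp. Distances used 1 RefSeq start per gene (GRCh38.p14), matched by symbol or identifier. Whole reads were recovered from FPKM with 1 length per gene, picked so that its values in the 4 libraries became whole. That 100% of 72383 values above 0 were whole follows from this choice and is no check. A gene without such a length (1 gene) was left out of that count. Whole reads were also recovered from M and A (100% within 0.05 reads at 113280 peaks under 200 reads). Only the overlap count and the recovery of reads from M and A were tested on simulated data. The simulated M and A had the form that the recovery assumes, so this checks the arithmetic and not the assumption. Gene ratios are log2 of FPKM + 1, for genes at FPKM 1 or more in a compared library, and understate changes of low genes. Python 3.11.15, pandas 2.3.3, NumPy 2.4.6, SciPy 1.17.1 and matplotlib 3.10.9 were used. Intervals are 95%, Wilson for shares and exact binomial on the recovered reads for M, and cover counting error only.

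Named genes were the 10 highest folds at q at most 0.05, the 5 widest peaks and the 5 genes with most peaks of each list, the 5 highest and lowest M with A at or above its median, up to 4 members of each of 11 gene lists by fold, and CDCP1, STC1 and NSUN2. The genes whose sequences are shown and NMT1 and KPNA1 as read examples were chosen after their values were seen. The regions and lists were chosen with earlier results of these data known. The result of 1 gene list is not reported here.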

Additional observations from a re-analysis of the deposited data

How the results depend on the processing

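No paired analysis was possible because each group has 1 library. Restricted to q at most 0.05, the lactate list held 293 5' UTR peaks in 247 genes, of median width 325 bp, and the vehicle list 804 in 644 genes, of 335 bp (1.73% of its peaks); 72.4% of the lactate-list peaks and 26.2% of the vehicle-list peaks overlapped. With lists of equal length, the vehicle list held 833 peaks (1.73%) in 670 genes, of median width 330 bp, and the overlap was 50.7% of the lactate list and 38.8% of the vehicle list. A reciprocal overlap of 50% gave 46.7% (lactate) and 19.4% (vehicle), and overlap with any class 66.0% and 26.6% in that order. Shares of protein-coding peaks were 1.58% (lactate) and 1.98% (vehicle). Without peaks of 200 bp the median widths were 325 bp (lactate) and 341 bp (vehicle). Genes with FPKM of at least 1 in both inputs numbered 280 (lactate) and 574 (vehicle). Within 1 kb of the gene start, an alternative chosen after seeing the data, 237 peaks in 230 genes (lactate) and 623 in 602 (vehicle) were left.

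In the authors' deposited table, the median M was −0.24 (265 peaks at or above 1, 499 at or below −1) after centring, −0.47 (47 and 233) at A of at least its median, −1.27 (11 and 92) at P under 0.01, and −0.59 (56 and 285) at 10 or more reads, the last chosen after seeing the data. For gene ratios, lactate-list and vehicle-list medians in that order were as follows. A pseudocount of 0.1 gave −0.56 and −0.54 (lactate input over vehicle input), 0.68 and 0.45 (vehicle IP over its input) and −1.02 and −1.08 (lactate IP over vehicle IP). A pseudocount of 5 gave −0.22 and −0.20, 0.23 and 0.16, and −0.37 and −0.36 for the same ratios. Without an FPKM minimum they were −0.29 and −0.28, 0.28 and 0.20, and −0.61 and −0.59, and the vehicle-list median of lactate IP over its input turned to 0.0030. Relative to the median of all genes they were −0.0017 and 0.032 (input over input, turned for the vehicle list), 0.055 and −0.093 (vehicle IP over its input, turned for the vehicle list), and −0.015 and −0.023 (IP over IP). These sign changes lie near 0, and their cause was not tested. The planned search of 200 bases around peak centres was not run, since no genome was used here.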
